A study of Mus musculus with 12 samples.

Results

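RNA splicing factors were followed across 4 lines made from 393P, a mouse lung cancer cell line that the labels call epithelial and non-metastatic. The genes were chosen by name: every gene of the count table whose symbol starts with Srsf and a digit, Hnrnp, Sf3a or Sf3b, U2af, Snrp, Mbnl, Ptbp, Celf or Esrp, together with Qk and Rbfox2. This gave 66 of the 12208 genes in the table, and all 66 passed the filter on low counts that left 12027 genes to test. They comprise 14 tissue-regulated splicing factors (Celf, Esrp2, Mbnl, Ptbp, Qk and Rbfox2), 10 SR protein genes, 20 hnRNP genes, 11 genes of the SF3 and U2AF factors and 11 Snrp genes. Esrp1, the other gene of the Esrp family, was not analysed here. The table lists only genes with at least 1 count in every library.

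The cells carried a GFP vector (vector, the control), wild-type Zeb1 (WT), or one of the Zeb1 forms labelled Zeb1_deficient (deficient) and Zeb1_mimetic (mimetic), all without treatment and in the same medium. Zeb1 is a transcription factor that represses epithelial genes. The series title concerns its acetylation, and the labels say no more of the last 2 forms, called mutants here; the line labelled deficient did not lack Zeb1 RNA, as the levels below show. Each line had 3 libraries labelled as biological replicates, while the design text speaks of 2 replicates. Each Zeb1 form was read in 1 line. The p-values therefore rest on how far libraries of the same line lie apart, and the Zeb1 form cannot be told apart from other differences between lines.

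Most mammalian genes are spliced in more than one way. The spliceosome is built from small nuclear ribonucleoproteins, whose shared ring is made of Sm proteins, and U2AF and SF3 proteins place it on the 3' splice site and branch point. SR proteins as a rule promote, and hnRNPs as a rule repress, the use of an exon. ESRP1 and ESRP2 are made in epithelial cells and keep epithelial exon choices, and their loss is a known part of the epithelial-mesenchymal transition. RBFOX2, QKI, MBNL, PTBP and CELF proteins act on many of the same exons and often push them the other way.

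The data are 3' tag counts, which stand for transcripts of a gene and give neither exon use, nor isoforms, nor protein. Levels are in CPM, a gene's counts scaled to a fixed library total after TMM correction, and a fold change is a log2 fold change, so that 1 is a doubling. A gene was called, and is said to have risen or fallen, at an adjusted p under 0.05 in edgeR's quasi-likelihood test, adjusted over all tested genes, and all adjusted p-values below come from that test. Changes are given on the log2 scale, and where 3 of them follow each other with no line named they are those of WT, deficient and mimetic against vector, in this order. In RNA from whole cultures, fewer cells with a transcript and less of it per cell cannot be told apart.

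Libraries held 24356697 to 39029599 counts in all. Mean levels of Zeb1 itself were 31.3 CPM (vector), 244 (WT), 484 (deficient) and 228 (mimetic), from tags that may come from the introduced or the resident gene. Those of Cdh1, which encodes E-cadherin, were 670.1 CPM (vector), 198 (WT), 445 (deficient) and 287 (mimetic). Vim, which encodes vimentin, had 5356 CPM (vector), 5871 (WT), 3940.2 (deficient) and 4764 (mimetic). The other mesenchymal markers were split. Fn1 was at 509 CPM (vector), 601 (WT), 835 (deficient) and 805 (mimetic), highest in the mutants, where Vim was lowest. Cdh2 was at 53.7 CPM (vector), 75.7 (WT), 38.1 (deficient) and 39.1 (mimetic), in the order of Vim. Of the epithelial markers 5 of 6 were in the table (Epcam was not), and their summed level was 9051 to 10470 CPM in vector, 4166 to 4320 in WT, 7688 to 7816 in deficient and 5563 to 5735 in mimetic. The fibroblast (3 of 5), immune (1 of 5) and endothelial (2 of 3) markers in the table summed to at most 3.47, 8.43 and 7.16 CPM. Ribosomal protein genes took 5.49 to 6.11% of counts in vector, 7.62 to 7.69% in WT, 6.26 to 6.60% in deficient and 7.08 to 7.22% in mimetic. Mitochondrially encoded genes took 0.814 to 0.998%, 0.396 to 0.426%, 0.698 to 0.722% and 0.482 to 0.504%.

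Against vector, the splicing factors were called about as often as all genes tested, and their changes were smaller. Beside genes of like level they were called less often in WT and mimetic, as given below. Of the 66 genes 42 were called in WT, 39 in deficient and 38 in mimetic. These are 63.6%, 59.1% and 57.6% of them, beside 64.6%, 58.2% and 59.5% of all genes tested. In WT 23 rose (31.0% of all genes rose) and 19 fell (33.6% of all genes fell). In deficient 16 rose (28.4% of all genes) and 23 fell (29.8%), and in mimetic 18 rose (28.6%) and 20 fell (30.9%). With RLE size factors these counts stayed at 16 and 23 in deficient and 18 and 20 in mimetic. Scaled by library size only, they were 22 higher and 19 lower in deficient, and 29 higher and 13 lower in mimetic. Which direction was more common in those lines thus depends on the scaling.

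Calls of at least 1.5-fold were few. In WT 4 of the 66 genes were called and passed 1.5-fold, beside 23.6% of all genes. The 4 were Esrp2, Celf3, Celf5 and Snrpg. Deficient had 1, Celf5, beside 17.6% of all genes. Mimetic had 2, Esrp2 and Celf5, beside 19.3%. The median size of the log2 fold change among the 66 genes was 0.19 in WT, 0.16 in deficient and 0.20 in mimetic, while over all genes it was 0.32, 0.27 and 0.28. Splicing factors are abundant, with a median level of 146 CPM against 32.8 CPM over all tested genes. Among genes with a mean of at least 50 CPM, a limit set after the data were seen, 0 of 54 splicing factors passed 1.5-fold against vector in any Zeb1 line. The counts over all 4651 such genes were 599 in WT (12.9%), 393 in deficient (8.45%) and 477 in mimetic (10.3%). Calls of any size were made for 64.8, 66.7 and 59.3% of the 54 in WT, deficient and mimetic. Over the 4651 genes these shares were 73.5, 68.4 and 69.0%. Between Zeb1 lines they were 48.1 beside 63.4% (deficient against WT), 46.3 beside 55.6% (mimetic against WT) and 25.9 beside 34.3% (mimetic against deficient).

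**Figure D1:**
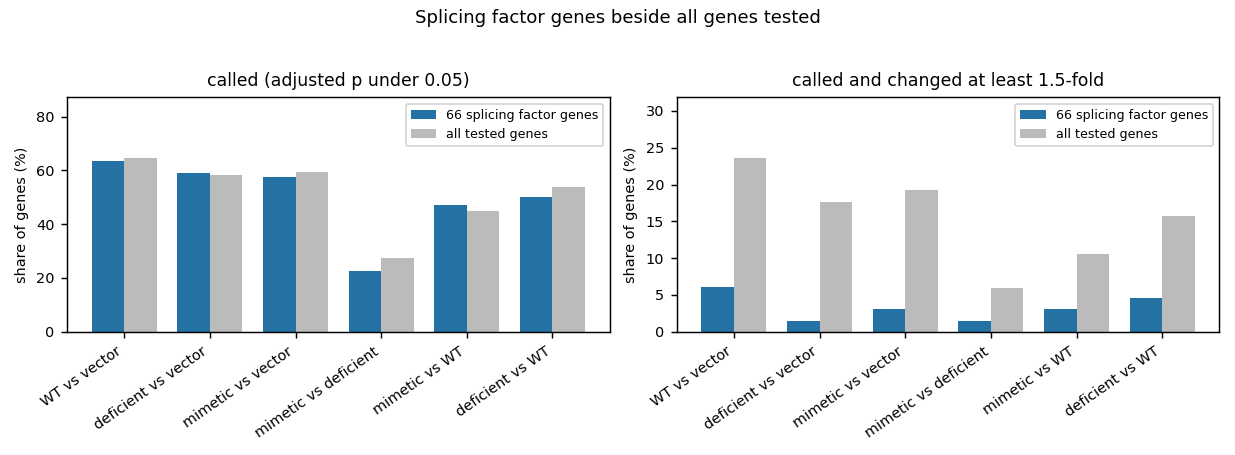
Share of genes called (left, %) and of genes called with a change of at least 1.5-fold (right, %) in each of 6 comparisons, for the 66 splicing factor genes (blue) and all 12027 tested genes (grey). The bars on the left are of similar height in each pair, and on the right the blue bars lie between 1.52 and 6.06% and the grey bars between 5.93 and 23.6%.

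The comparisons with vector share the 3 vector libraries, so calls in several Zeb1 lines are not independent. Higher than vector in all 3 Zeb1 lines were 12 genes, 18.2% of the 66 beside 16.6% of all genes. They were Celf5, Srsf3, Srsf6, Srsf7, Hnrnpdl, Sf3b5, Sf3b6, Snrpb, Snrpc, Snrpd3, Snrpe and Snrpg. Lower in all 3 were 11 genes, 16.7% beside 18.5% of all genes: Mbnl1, Hnrnpa0, Hnrnpa3, Hnrnpab, Hnrnph1, Hnrnpk, Hnrnpm, Hnrnpul1, Sf3a1, Sf3b3 and Snrpb2. Called against vector in none of the lines were 10 genes, 15.2% beside 16.9% of all genes. Called in none of the 6 comparisons were 8 genes, 12.1% beside 12.8% of all genes: Ptbp1, Srsf1, Srsf2, Srsf4, Srsf9, Sf3a2, U2af2 and Snrpf. All of these shares lie near the background.

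**Figure D2:**
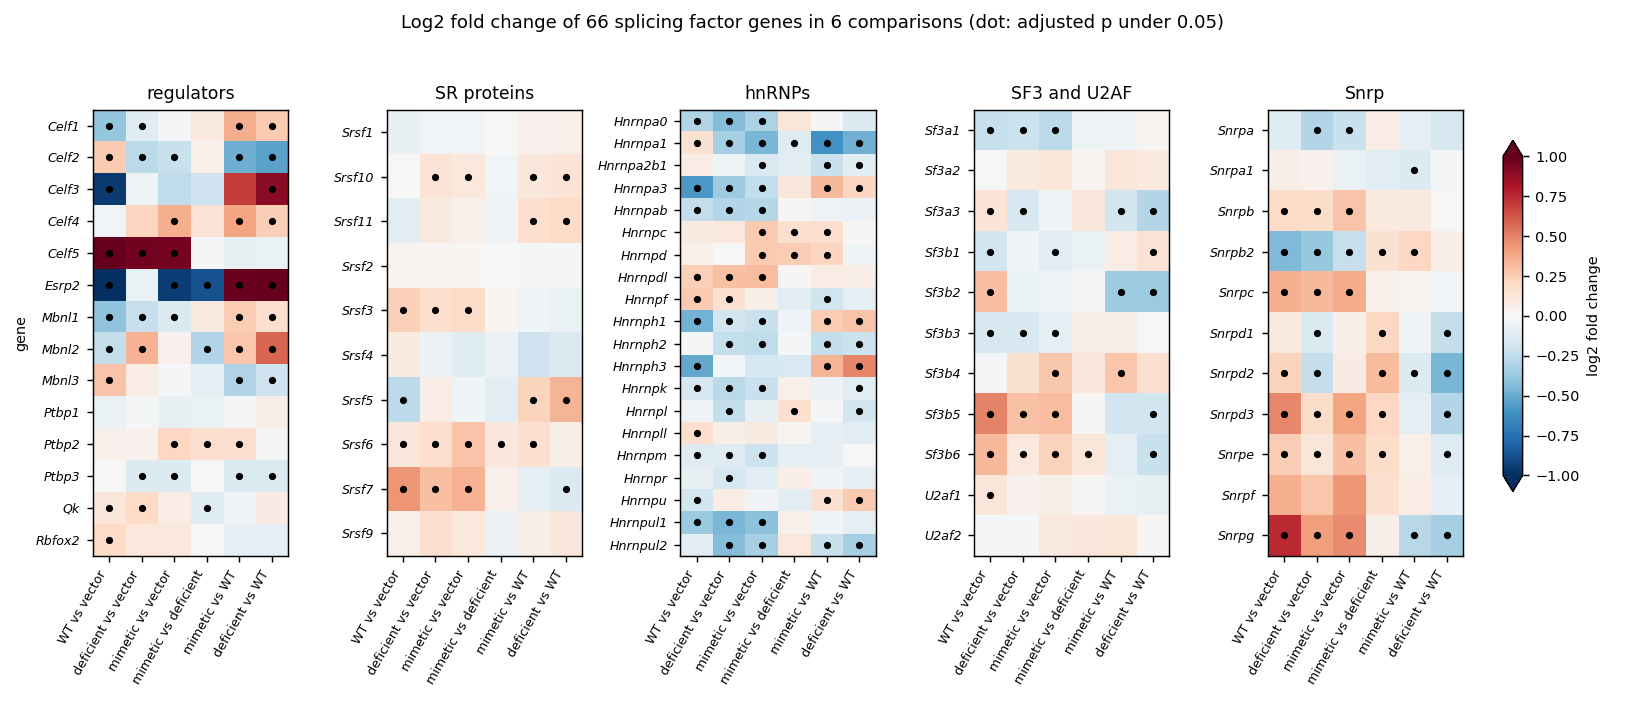
Log2 fold change (colour, blue lower and red higher, limits -1 and 1) of the 66 genes (rows, by class) in 6 comparisons (columns); a dot marks an adjusted p under 0.05 in edgeR's quasi-likelihood test. Esrp2 is dark blue in WT and mimetic and pale in deficient, Celf3 is dark blue in WT, the hnRNP panel is mostly blue and the Snrp panel mostly red in the 3 columns against vector.

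Zeb1 binds E-boxes with the letters CAGGTG or CAGGTA, so the 250 bases before the RefSeq transcript starts (GRCm38.p6) were searched for these letters on both strands (CACCTG and TACCTG on the other strand). The pair share all letters but the last, so 1 site counts for 1 of them only. Of the 66 genes 55 had 85 such windows. The genes with no window, Esrp2 and Rbfox2 among them, were not searched. Either motif was found in 20 of the 85 windows, 23.5%, beside 25.4% of all 32851 windows in the RefSeq table. Over all windows CAGGTG was in 17.2% and CAGGTA in 10.0%. Of the 17 splicing factor genes with a match, 5 rose, 5 fell and 7 were not called in WT against vector. Of the 38 without one, 14 rose, 13 fell and 11 were not called. The shares that fell in WT were 29.4% with a match and 34.2% without. They were 41.2 and 34.2% in deficient, and 35.3 and 28.9% in mimetic. A match is a run of letters and not a measured binding site. Windows of 5 genes are printed 5' to 3' on the strand of the gene, with a motif in capitals. The first 3 hold a motif and did different things in WT: Hnrnph3 (chr10:63023850-63024099, minus strand, motif starting 180 bases before the start) fell, Snrpe (chr1:133610281-133610530, minus strand, 162 bases) rose, and Srsf1 (chr11:88047123-88047372, plus strand, 161 bases) was called in none of the 6 comparisons. The last pair are the first window of Mbnl1 (chr3:60472580-60472829, plus strand, 249 bases) and that of its paralog Mbnl2 (chr14:120275419-120275668, plus strand, no motif). Both genes fell in WT and their levels parted in the deficient line, and the part of the motif was not tested.
Hnrnph3: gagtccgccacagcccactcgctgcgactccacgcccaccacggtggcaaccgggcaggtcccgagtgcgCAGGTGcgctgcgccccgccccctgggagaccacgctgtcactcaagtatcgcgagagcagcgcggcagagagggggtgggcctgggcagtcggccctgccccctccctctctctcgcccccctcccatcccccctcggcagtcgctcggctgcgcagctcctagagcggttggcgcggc
Snrpe: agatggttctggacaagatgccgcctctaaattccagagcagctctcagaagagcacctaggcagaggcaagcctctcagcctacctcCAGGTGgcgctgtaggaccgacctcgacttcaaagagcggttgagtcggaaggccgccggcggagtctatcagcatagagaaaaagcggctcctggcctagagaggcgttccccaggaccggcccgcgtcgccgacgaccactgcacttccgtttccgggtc
Srsf1: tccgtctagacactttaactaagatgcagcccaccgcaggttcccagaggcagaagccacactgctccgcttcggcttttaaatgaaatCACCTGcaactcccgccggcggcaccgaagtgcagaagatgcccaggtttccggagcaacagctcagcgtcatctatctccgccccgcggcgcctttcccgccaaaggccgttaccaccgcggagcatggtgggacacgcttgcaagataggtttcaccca
Mbnl1: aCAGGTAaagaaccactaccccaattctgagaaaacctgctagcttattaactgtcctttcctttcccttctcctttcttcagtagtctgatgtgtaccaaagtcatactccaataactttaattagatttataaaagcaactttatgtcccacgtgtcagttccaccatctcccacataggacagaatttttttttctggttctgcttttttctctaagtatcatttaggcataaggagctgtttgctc
Mbnl2: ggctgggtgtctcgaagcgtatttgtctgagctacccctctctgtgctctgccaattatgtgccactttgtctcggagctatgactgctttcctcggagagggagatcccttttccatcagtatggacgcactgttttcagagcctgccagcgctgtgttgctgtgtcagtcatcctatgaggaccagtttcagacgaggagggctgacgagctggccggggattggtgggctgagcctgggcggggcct

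Esrp2, the epithelial splicing regulator, had the largest change of the 66 genes in WT and separated the Zeb1 lines from each other. It lies at chr8:106130319-106136974, minus strand (GRCm38, GENCODE M21). Its level was 50.8, 49.2 and 48.4 CPM in the vector libraries, 13.6, 12.7 and 12.7 in WT, 42.0, 44.6 and 55.1 in deficient and 26.1, 26.2 and 25 in mimetic. All WT and all mimetic libraries were below every vector library and apart from each other, while the deficient libraries lay on both sides of vector. Against vector the log2 fold change was -1.93 ± 0.086 (SE, adjusted p = 7.07e-14) in WT, a fall of 3.80-fold, and -0.94 ± 0.082 (SE, adjusted p = 4.15e-09) in mimetic. In deficient it was -0.067 ± 0.078 (SE, adjusted p = 0.479), which did not pass the test. Deficient replicate 3 was the highest library of all, and without it the fall in deficient was -0.19 and passed (adjusted p = 0.0184).

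The 3 Zeb1 lines also differed from each other in Esrp2. Mimetic was lower than deficient, with a log2 fold change of -0.87 ± 0.082 (SE, adjusted p = 6.91e-08), and higher than WT, with 0.98 ± 0.089 (SE, adjusted p = 2.25e-08). Deficient was higher than WT by 1.86 ± 0.087 (SE, adjusted p = 3.63e-13). The order of the means, vector, deficient, mimetic, WT, was that of Cdh1 and of the epithelial marker sums given above; the part of such markers in the result was not tested. It was also that of Rbm47, another RNA-binding protein made in epithelia, which is outside the 66 genes and had means of 74.3 CPM (vector), 38.2 (WT), 54.3 (deficient) and 49.2 (mimetic). Rbm47 fell in every Zeb1 line, with -0.96 in WT, -0.45 in deficient and -0.59 in mimetic, and its mimetic against deficient difference of -0.14 was not called (adjusted p = 0.237). The 3' end of Esrp2 overlaps that of Nfatc3, which runs the other way, and since the counting strand is not given, their tags may be mixed. Nfatc3 had log2 fold changes against vector of -0.29 in WT, -0.41 in deficient and -0.25 in mimetic, all called, and no called difference among the Zeb1 lines.

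**Figure D3:**
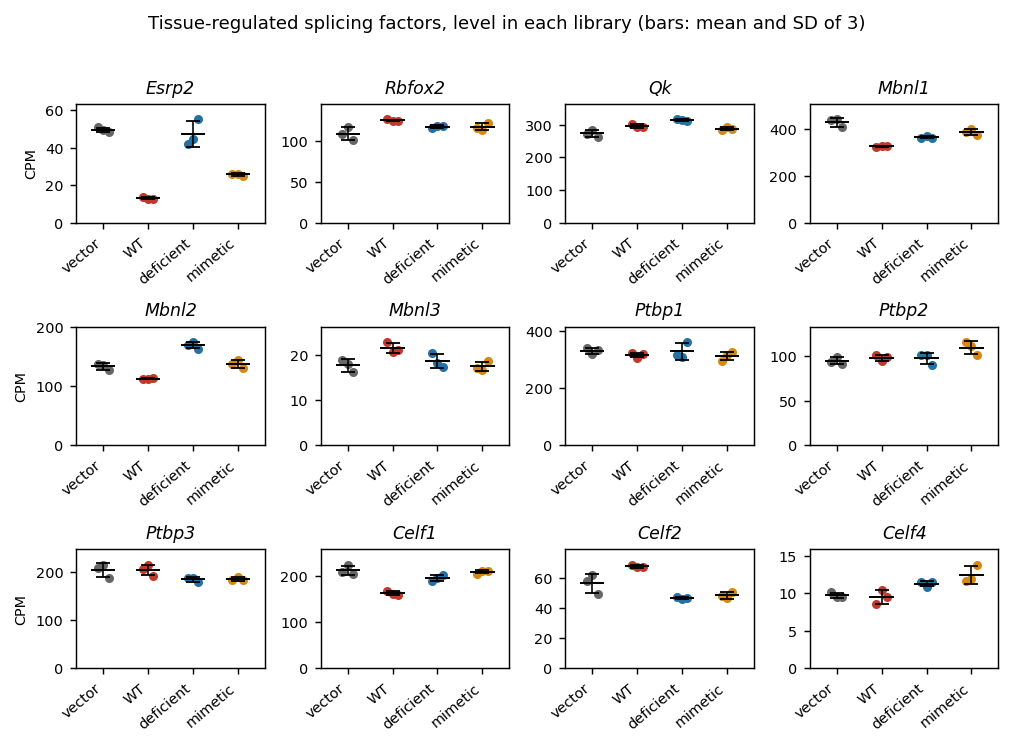
Level in CPM (vertical axes, each from 0) of 12 tissue-regulated splicing factors in the 4 lines; points are the 3 libraries, bars the mean and SD. Esrp2 lies at 12.7 to 13.6 CPM in WT and 48.4 to 50.8 CPM in vector, and in the other 11 panels the lines differ by far less.

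RBFOX2 and QKI are the factors best known for mesenchymal exon choices, and both genes rose by small amounts in some of the lines. Rbfox2 was at 109, 117 and 101 CPM in the vector libraries, 126, 125 and 124 in WT, 116, 119 and 118 in deficient and 116, 114 and 122 in mimetic. All WT libraries were above those of the other lines, and the deficient and mimetic libraries overlapped vector at its highest library. Rbfox2 rose in WT by 0.20 ± 0.049 (SE, adjusted p = 0.00129), and the values in deficient, 0.11 ± 0.049 (SE, adjusted p = 0.0614), and mimetic, 0.11 ± 0.049 (SE, adjusted p = 0.0667), were not called. Both lay near the threshold, and without vector replicate 2 both were called, at 0.16 (adjusted p = 0.00863 and 0.00967). They were also called with library size scaling (0.15 and 0.18; adjusted p = 0.0117 and 0.00389) and when only genes of at least 5 CPM in 3 libraries were tested (0.13 and 0.12; adjusted p = 0.0238 and 0.0333).

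Qk was at 272, 285 and 262 CPM in the vector libraries, 303, 292 and 292 in WT, 316, 313 and 309.7 in deficient and 282, 293 and 288 in mimetic. Every deficient library was above all others, WT was above vector, and mimetic overlapped both of those. Qk rose in deficient by 0.20 ± 0.04 (SE, adjusted p = 0.00025) and in WT by 0.11 ± 0.04 (SE, adjusted p = 0.0168), and mimetic, at 0.076, was not called (adjusted p = 0.105). The WT call was lost without vector replicate 3 (adjusted p = 0.0562) or WT replicate 1 (adjusted p = 0.0721), and the mimetic value was called without vector replicate 2 (0.11, adjusted p = 0.0392), with library size scaling (0.15, adjusted p = 0.00292) and with the 5 CPM filter (0.093, adjusted p = 0.0414). Neither gene passed 1.5-fold in any comparison.

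The muscleblind genes moved apart from each other. Mbnl1, the main paralog by counts, fell in all 3 Zeb1 lines, Mbnl2 fell in WT and rose in deficient, and Mbnl3 rose in WT. Mbnl1 was at 441, 443 and 409 CPM in the vector libraries, 323, 329 and 329 in WT, 365, 372 and 364 in deficient and 388, 404 and 378 in mimetic. The 4 lines did not overlap, with vector highest and WT lowest. Its log2 fold changes were -0.40 ± 0.041 (SE, adjusted p = 3.29e-08) in WT, -0.23 ± 0.04 (SE, adjusted p = 5.41e-05) in deficient and -0.15 ± 0.04 (SE, adjusted p = 0.00417) in mimetic, and the last was not called when scaled by library size only (-0.072, adjusted p = 0.136).

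Mbnl2 was at 137, 135 and 127 CPM in the vector libraries, 112, 112 and 114 in WT, 170.2, 174 and 163 in deficient and 137, 144 and 130.1 in mimetic. The WT libraries were the lowest and the deficient libraries the highest of the 12, and mimetic overlapped vector. The log2 fold change was -0.24 ± 0.046 (SE, adjusted p = 0.00013) in WT, 0.35 ± 0.046 (SE, adjusted p = 1.84e-06) in deficient and 0.041 ± 0.046 (SE, adjusted p = 0.46) in mimetic. With library size scaling the mimetic value was 0.11 and was called (adjusted p = 0.0402). Deficient was above WT by 0.59 ± 0.046 (SE, adjusted p = 1.45e-09), a difference of 1.5-fold, and mimetic was below deficient with -0.30 ± 0.046 (SE, adjusted p = 3.86e-05). Mbnl3 was at 17.6 CPM (vector), 21.5 (WT), 18.5 (deficient) and 17.5 (mimetic), and rose in WT by 0.28 (adjusted p = 0.0068). As a share of the counts of the 3 genes, Mbnl2 took 22.9% ± 0.183 in the vector line and 24.5% ± 0.148 in WT, beside 30.5% ± 0.469 (deficient) and 25.2% ± 0.404 (mimetic; SD, n = 3). The Mbnl1 share went from 74.1% ± 0.195 in vector to 70.9% ± 0.348, 66.2% ± 0.614 and 71.6% ± 0.123.

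CELF proteins bind GU-rich RNA and often act against MBNL proteins. Celf1 fell in WT, while Celf2 rose there and fell in both mutant lines. Celf1 was at 209, 225 and 206 CPM in the vector libraries, 169, 162 and 159.7 in WT, 191, 195 and 203 in deficient and 206, 211 and 212 in mimetic. WT lay below all other libraries, deficient lay just below vector, and mimetic overlapped vector. The log2 fold change was -0.38 ± 0.043 (SE, adjusted p = 1.66e-07) in WT, -0.12 ± 0.043 (SE, adjusted p = 0.0236) in deficient and -0.023 ± 0.043 (SE, adjusted p = 0.669) in mimetic. The deficient call was lost under 6 of the alternatives, with adjusted p-values up to 0.146.

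Celf2 was at 58.2, 61.9 and 49.3 CPM in the vector libraries, 68.8, 67.4 and 67.1 in WT, 47.6, 46.3 and 46.5 in deficient and 47.8, 46.5 and 51.0 in mimetic. The WT libraries were the highest of the 12, deficient lay below all vector libraries, and mimetic overlapped vector at its lowest library. The log2 fold change was 0.26 ± 0.067 (SE, adjusted p = 0.00173) in WT, -0.27 ± 0.068 (SE, adjusted p = 0.00196) in deficient and -0.22 ± 0.068 (SE, adjusted p = 0.00878) in mimetic. The mimetic call was lost without vector replicate 2 (adjusted p = 0.0658) and with library size scaling (adjusted p = 0.0737). Of the counts of the 5 Celf genes, Celf2 took 20.1% ± 1.31 in vector, and in WT the share was 28.0% ± 0.259. The deficient line had 18.3% ± 0.614 and the mimetic line 17.7% ± 0.569 (SD, n = 3).

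The other Celf genes are best known from neurons. Celf4 was at 10.1, 9.56 and 9.48 CPM in the vector libraries, 8.63, 10.4 and 9.47 in WT, 11.5, 10.9 and 11.6 in deficient and 11.7, 11.9 and 13.8 in mimetic. Mimetic was above all other lines, and it was the only line called against vector (0.36 ± 0.10 SE, adjusted p = 0.0043). Deficient was called with library size scaling (0.26, adjusted p = 0.0299) and with the 5 CPM filter (0.24, adjusted p = 0.043). Celf3 and Celf5 were near 1 CPM. Celf3 had means of 1.05 CPM (vector), 0.528 (WT), 1.01 (deficient) and 0.873 (mimetic), and fell in WT with -0.96 (adjusted p = 0.0306), a call lost without any 1 of 4 libraries. Celf5 had means of 0.645 CPM (vector), 1.30 (WT), 1.24 (deficient) and 1.24 (mimetic), and its log2 fold changes of 1.03, 0.96 and 0.95 were called in all 3 lines but in none of them without vector replicate 3 (0.69, 0.62 and 0.61; adjusted p = 0.0719, 0.114 and 0.125). Of 5 neuron markers 3 were in the table, and their sum was 6.10 to 7.41 CPM in vector, 23.8 to 26.2 in WT, 22.1 to 24.5 in deficient and 29.5 to 30.4 in mimetic. Within that sum Tubb3 and Map2 were higher and Snap25 lower in the Zeb1 lines, Rbfox3 and Elavl3 were not analysed here, and the part of these genes in the Celf values was not tested.

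PTBP1, which represses exons in most tissues, and its paralogs changed little. Ptbp1 was at 329.9 CPM (vector), 315 (WT), 328 (deficient) and 312 (mimetic), and was called in none of the 6 comparisons, with log2 fold changes against vector from -0.078 to -0.0083. Ptbp2, the form known from neurons, was at 93.9, 99.0 and 91.2 CPM in the vector libraries, 101, 94.2 and 99.0 in WT, 101, 101 and 90.5 in deficient and 116, 112 and 101 in mimetic. The mimetic libraries were all above vector and WT and met the deficient line at its highest library. Ptbp2 rose in mimetic by 0.21 ± 0.057 (SE, adjusted p = 0.00345). Ptbp3 had means of 203 CPM (vector), 204 (WT), 184 (deficient) and 185 (mimetic), with calls of -0.14 in deficient and -0.13 in mimetic that were lost under 5 and 7 alternatives. Ptbp1 took 52.6% ± 2.01 of the family counts in vector, and 51.1% ± 1.19, 53.8% ± 3.04 and 51.5% ± 1.83 in the WT, deficient and mimetic lines (SD, n = 3).

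**Figure D4:**
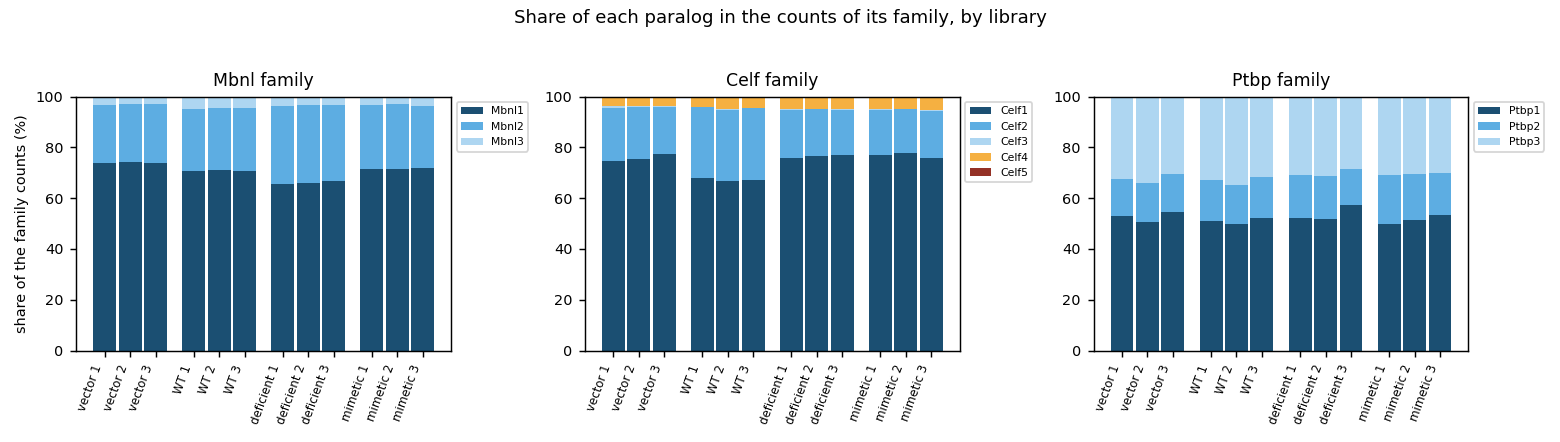
Share (%, vertical axes) of each paralog in the summed counts of the Mbnl, Celf and Ptbp families, 1 bar per library. Mbnl2 reaches about 30% of the Mbnl counts in the 3 deficient libraries. Celf2 reaches about 28% of the Celf counts in the 3 WT libraries. The Ptbp1 shares of the lines overlap, while Ptbp2 takes 16.6 to 19.5% in mimetic and 14.7 to 15.7% in vector.

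Over the 14 tissue-regulated factors, 5 rose and 5 fell in WT, 3 rose and 4 fell in deficient, and 3 rose and 4 fell in mimetic. Over all genes 31.0, 28.4 and 28.6% rose and 33.6, 29.8 and 30.9% fell in these lines, against 35.7, 21.4 and 21.4% and 35.7, 28.6 and 28.6% of the 14. The medians were -0.011, 0.017 and -0.018, beside -0.013, 0.0041 and -0.0044 over all genes. With library size scaling the counts in deficient became 5 higher and 2 lower and in mimetic 6 higher and 1 lower, so no common direction of the class is given. Single vector libraries moved these counts too: without vector replicate 3 WT had 3 rises, and without vector replicate 2 deficient had 2 falls and mimetic 5 rises and 2 falls.

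Among the SR protein genes only rises were called in the mutant lines, while WT had 3 rises and 1 fall. The genes called were 4 of 10 in each line, 40%, fewer than the 64.6, 58.2 and 59.5% of all genes called in WT, deficient and mimetic, and the share that rose, 30, 40 and 40%, stood beside 31.0, 28.4 and 28.6% of all genes. Srsf3, Srsf6 and Srsf7 rose in all 3 Zeb1 lines, Srsf10 rose in both mutants and Srsf5 fell in WT. The medians of the 10 genes were 0.039 in WT, 0.11 in deficient and 0.077 in mimetic. Scaling by library size kept the counts in WT and gave 7 higher and 0 lower in deficient and 6 higher and 0 lower in mimetic. WT had 2 falls without WT replicate 2 or vector replicate 3. Srsf7, a shuttling SR protein with a zinc knuckle, was at 108, 105 and 114 CPM in the vector libraries, 144, 152 and 148 in WT, 138, 134 and 132 in deficient and 145, 134 and 139 in mimetic. Every library of the Zeb1 lines was above every vector library. It rose by 0.44 ± 0.045 (SE, adjusted p = 3.99e-08) in WT, 0.30 ± 0.045 (SE, adjusted p = 1.06e-05) in deficient and 0.35 ± 0.046 (SE, adjusted p = 1.37e-06) in mimetic.

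Srsf3, the smallest SR protein, was at 223 CPM (vector), 263 (WT), 251 (deficient) and 254 (mimetic), and rose by 0.24, 0.17 and 0.19 in WT, deficient and mimetic (adjusted p from 2.62e-05 to 0.00112). Srsf6 was at 183, 179.8 and 189 CPM in the vector libraries, 199, 205 and 194 in WT, 203, 208 and 211 in deficient and 228, 222 and 221 in mimetic. Mimetic was the highest line, and WT and deficient overlapped each other above vector. Its rises were 0.11, 0.17 and 0.28. Srsf5 went the other way in WT, with 359, 346 and 344 CPM in the vector libraries, 294, 284 and 295 in WT, 380.4, 361 and 363 in deficient and 346, 354 and 319 in mimetic. The WT libraries were the lowest of the 12, with a log2 fold change of -0.26 ± 0.043 (SE, adjusted p = 1.93e-05). Deficient exceeded WT by 0.34 ± 0.043 (SE, adjusted p = 1.54e-06) and mimetic exceeded WT by 0.22 ± 0.043 (SE, adjusted p = 0.000298). Srsf10 was at 170.0 CPM (vector), 169 (WT), 187 (deficient) and 183 (mimetic), with 0.14 and 0.11 in the mutants and -0.0041 in WT. Srsf11 was called against vector in no line and exceeded WT in deficient by 0.20 and in mimetic by 0.17. The mimetic call against WT was lost without WT replicate 1 (adjusted p = 0.0613), WT replicate 3 (adjusted p = 0.089) or mimetic replicate 2 (adjusted p = 0.078). Srsf1, the founding SR protein, whose promoter window with a motif is printed above, was at 611 CPM (vector), 579 (WT), 599 (deficient) and 598 (mimetic) and was called nowhere, and neither were Srsf2, Srsf4 and Srsf9.

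Falls were the more common call among the hnRNP genes. In WT 9 of 20 fell and 4 rose, in deficient 12 fell and 2 rose, and in mimetic 11 fell and 3 rose. These falls are 45, 60 and 55% of the 20 genes, beside 33.6, 29.8 and 30.9% of all genes, and the rises 20, 10 and 15%, beside 31.0, 28.4 and 28.6%. Abundant genes as a whole leaned to falls in the mutants: of those with a mean of at least 50 CPM 37.6, 39.5 and 40.4% fell and 35.9, 28.9 and 28.7% rose. The medians were -0.092, -0.18 and -0.19. Falls stayed the more common under the other scalings: with library size only the counts were 9 lower and 4 higher, 11 lower and 3 higher, and 10 lower and 5 higher, and when 1 library was left out at least 8, 11 and 11 fell. The summed level of the 20 genes was 7621 ± 50.2 CPM in vector (SD, n = 3), and it was lower in the Zeb1 lines, at 7204 ± 74.6 (WT), 6922 ± 119 (deficient) and 6858 ± 157 (mimetic). Of these, 7 fell in every Zeb1 line: Hnrnpa0, Hnrnpa3, Hnrnpab, Hnrnph1, Hnrnpk, Hnrnpm and Hnrnpul1.

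The largest falls in WT were those of Hnrnpa3, Hnrnph3 and Hnrnph1. Hnrnpa3, of the hnRNP A/B group, was at 93.1, 82.1 and 80.4 CPM in the vector libraries, 56.0, 57.1 and 58.9 in WT, 62.6, 62.5 and 74.1 in deficient and 73.8, 68.0 and 74.0 in mimetic. All libraries of the Zeb1 lines were below vector, and WT was below both mutants. The log2 fold change was -0.57 ± 0.068 (SE, adjusted p = 3.33e-07) in WT, -0.36 ± 0.068 (SE, adjusted p = 0.000124) in deficient and -0.24 ± 0.068 (SE, adjusted p = 0.00416) in mimetic. Hnrnph1, which binds runs of G, was at 742, 738 and 723 CPM in the vector libraries, 528, 541 and 522 in WT, 671, 659 and 606 in deficient and 637, 649 and 608 in mimetic. It too was below vector in every library and lowest in WT. It fell, with a log2 fold change of -0.47 in WT (adjusted p = 5.74e-09), -0.19 in deficient and -0.22 in mimetic.

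Its relative Hnrnph3 was at 29.2, 27.4 and 29.1 CPM in the vector libraries, 19.7, 20.9 and 19.3 in WT, 27.6, 26.2 and 30.5 in deficient and 26.8, 23.2 and 25.9 in mimetic. Only WT was called against vector (-0.52 ± 0.077 SE, adjusted p = 6.88e-06). Mimetic lay below all vector libraries and missed the threshold (-0.18 ± 0.077 SE, adjusted p = 0.0542), and deficient overlapped vector (-0.025). Deficient exceeded WT by 0.49 ± 0.078 (SE, adjusted p = 2.25e-05) and mimetic exceeded WT by 0.34 ± 0.079 (SE, adjusted p = 0.0015). Hnrnph3 overlaps Rufy2 in the annotation, and Rufy2 had -0.039 in WT, which was not called. Hnrnph2, also of this family, moved in another set of lines, with -0.018 in WT (not called), -0.24 in deficient and -0.26 in mimetic.

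Hnrnpa1, which represses many exons and is among the most abundant hnRNPs, rose in WT and fell in both mutants. It lies at chr15:103240432-103246692, plus strand. It was at 938, 935 and 973 CPM in the vector libraries, 1038, 1048 and 1074 in WT, 773, 756 and 736 in deficient and 713, 704 and 656 in mimetic. The 4 lines did not overlap. The log2 fold change was 0.15 ± 0.04 (SE, adjusted p = 0.00266) in WT, -0.33 ± 0.04 (SE, adjusted p = 6.59e-07) in deficient and -0.46 ± 0.04 (SE, adjusted p = 5.34e-09) in mimetic. Mimetic was below WT with -0.61 ± 0.04 (SE, adjusted p = 2.11e-10), a difference of 1.52-fold, and deficient was below WT with -0.48 ± 0.04 (SE, adjusted p = 3.82e-09). The genome holds many processed copies of Hnrnpa1, and how reads that match several of them were counted is not given in the sources used here, so its level is uncertain.

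Hnrnpul1 and Hnrnpul2, relatives of the nuclear matrix protein hnRNP U, and Hnrnpa0 fell in both mutants. Hnrnpul1 was at 534, 512 and 531 CPM in the vector libraries, 408, 406 and 408 in WT, 369.9, 351 and 426 in deficient and 372, 413 and 403 in mimetic. Every library of the Zeb1 lines was below vector, with -0.37, -0.46 and -0.41 (adjusted p from 5.51e-07 to 7.42e-06). Hnrnpul2 was at 187 CPM (vector), 174 (WT), 138 (deficient) and 149 (mimetic), and fell, with a log2 fold change of -0.44 in deficient and -0.33 in mimetic, with -0.11 in WT (not called). Hnrnpa0 had log2 fold changes of -0.30, -0.44 and -0.32. The rises were smaller in number. Hnrnpdl rose in all 3 lines, by 0.23, 0.30 and 0.31, Hnrnpf rose in WT (0.26) and deficient (0.16), Hnrnpll, known for exon choices of lymphocytes, in WT (0.17), and Hnrnpc (0.26) and Hnrnpd (0.26) in mimetic. Hnrnpu fell in WT (-0.19), Hnrnpr and Hnrnpl in deficient (-0.18 and -0.24) and Hnrnpa2b1 in mimetic (-0.15). Hnrnpm, which is known to oppose ESRP proteins at shared exons, fell, with log2 fold changes of -0.13, -0.12 and -0.21 from 451 CPM in vector. Deficient replicate 3, at 456 CPM, lay above every vector library (449 to 453 CPM). Hnrnpm overlaps March2 in the annotation, which rose in WT (0.40) and was not called in the mutants.

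The SF3 and U2AF genes split within their own complexes. In WT 5 of 11 rose and 3 fell, in deficient 2 rose and 3 fell, and in mimetic 3 rose and 3 fell, with medians of 0.0036, -0.010 and 0.060. The rises are 45.5, 18.2 and 27.3% of the 11 (31.0, 28.4 and 28.6% of all genes), and the falls 27.3% in each line (33.6, 29.8 and 30.9% of all genes). With library size scaling mimetic had 5 higher and 1 lower. Without vector replicate 1 or WT replicate 2 only 3 rose in WT, without deficient replicate 2 or any 1 vector library only 1 rose in deficient, and in mimetic 5 rose without vector replicate 3 and 1 fell without mimetic replicate 3. The small SF3B subunits rose: Sf3b5 was at 30.6, 26.7 and 34.0 CPM in the vector libraries, 42.8, 41.6 and 44.5 in WT, 36.6, 38.3 and 37.2 in deficient and 35.1, 36.2 and 41.8 in mimetic. All libraries of the Zeb1 lines were above vector. It rose by 0.50 ± 0.08 (SE, adjusted p = 1.73e-05) in WT, 0.29 ± 0.08 (SE, adjusted p = 0.00373) in deficient and 0.31 ± 0.081 (SE, adjusted p = 0.00272) in mimetic.

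Sf3b6, which contacts the branch point, was at 93.9, 93.9 and 92.3 CPM in the vector libraries, 116, 121 and 115 in WT, 104, 98.7 and 99.1 in deficient and 113, 109 and 107 in mimetic. The lines did not overlap, in the order WT, mimetic, deficient, vector. It rose by 0.33, 0.23 and 0.11 in that order of lines. Sf3b2 rose in WT alone, by 0.30 ± 0.038 (SE, adjusted p = 6.36e-07), from 769 ± 31.6 to 947 ± 11.1 CPM, and was -0.063 in deficient and -0.053 in mimetic (not called). The tests of the difference gave -0.36 ± 0.038 (SE, adjusted p = 8.8e-08) for deficient against WT and -0.35 ± 0.038 (SE, adjusted p = 2.21e-07) for mimetic against WT. Sf3b4 rose in mimetic by 0.27 (adjusted p = 0.00946), a call lost without mimetic replicate 3 (adjusted p = 0.0509).

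Sf3a1, Sf3b1 and Sf3b3 fell. Sf3a1 was at 202 CPM (vector), 172 (WT), 174 (deficient) and 167 (mimetic), and fell, with log2 fold changes of -0.23, -0.22 and -0.27. Sf3b1, the largest subunit, fell in WT with -0.19 and in mimetic with -0.11, and Sf3b3 fell in all 3 lines with -0.16, -0.16 and -0.10. Sf3b3 overlaps Cog4 in the annotation, which rose in WT (0.14) and fell in deficient (-0.27) and mimetic (-0.32). U2af1 rose in WT by 0.12 (adjusted p = 0.0262). Its partner U2af2, at 253 CPM (vector), 249.7 (WT), 252 (deficient) and 272 (mimetic), and Sf3a2 were called in none of the 6 comparisons.

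In WT and mimetic rises were the more common call among the Snrp genes, which encode Sm ring proteins and the proteins of the U1 and U2 particles. In WT 6 of 11 rose and 1 fell, in deficient 5 rose and 4 fell, and in mimetic 5 rose and 2 fell. Rises made up 54.5, 45.5 and 45.5% of the 11 genes, while over all genes they made up 31.0, 28.4 and 28.6%. Falls made up 9.09, 36.4 and 18.2%, and over all genes 33.6, 29.8 and 30.9%. The medians were 0.22, 0.12 and 0.29, and with library size scaling the counts were 7 and 1, 5 and 3, and 7 and 1. In deficient only 3 rose without deficient replicate 1, deficient replicate 2, vector replicate 1 or vector replicate 2, and in mimetic 1 fell without mimetic replicate 1 or vector replicate 1. The summed level of the 11 genes was 1063 ± 47.3 CPM in vector (SD, n = 3), 1194 ± 12.6 (WT), 1085 ± 19.4 (deficient) and 1183 ± 11.2 (mimetic). Libraries of WT and mimetic overlapped in this sum, as did those of deficient and vector. Only by these means does the order of lines match that of the ribosomal protein share given above. As a share of counts, the measure used there, the Snrp genes were highest for mimetic (0.1216%), ahead of WT (0.118%). On that measure deficient had 0.1093% and vector 0.1038%. The part of a shift in ribosomal protein genes in the Snrp values was not tested.

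Snrpg, which encodes Sm protein G, had the largest rise of the class. It lies at chr6:86371304-86379328, plus strand, and was at 30.7, 29.4 and 32.9 CPM in the vector libraries, 50.3, 49.4 and 56.8 in WT, 40.7, 43.9 and 39.2 in deficient and 41.4, 43.5 and 44.2 in mimetic. WT was the highest line, and the mutants overlapped each other above vector. It rose by 0.75 ± 0.069 (SE, adjusted p = 6.86e-09) in WT, 1.68-fold, 0.41 ± 0.069 (SE, adjusted p = 3.14e-05) in deficient and 0.47 ± 0.069 (SE, adjusted p = 6.26e-06) in mimetic. Snrpd3, Sm protein D3, was at 99.0, 98.6 and 110.1 CPM in the vector libraries, 145, 146 and 138 in WT, 125, 123 and 101 in deficient and 139.6, 140.4 and 124 in mimetic. WT and mimetic were above vector throughout, and 1 deficient library lay within its range. Its rises were 0.48, 0.18 and 0.39. Of the other Sm genes, Snrpe, whose promoter window is printed above, rose by 0.25, 0.12 and 0.30, and Snrpb by 0.19, 0.19 and 0.29. Snrpf was near the floor at 0.344 CPM (vector), 0.429 (WT), 0.412 (deficient) and 0.461 (mimetic), and was called nowhere. Small Sm genes have processed copies in the genome, so these levels carry the same doubt as that of Hnrnpa1.

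Genes of particle-specific proteins moved both ways. Snrpc, a protein of U1, was at 107 CPM (vector), 137 (WT), 134 (deficient) and 138 (mimetic), and rose by 0.35, 0.32 and 0.37 (adjusted p from 1.26e-06 to 7.96e-06). Snrpb2, a protein of U2, was at 106, 102 and 104 CPM in the vector libraries, 77.6, 77.3 and 75.8 in WT, 85.1, 78.8 and 75.8 in deficient and 95, 87.9 and 83.0 in mimetic. All libraries of the Zeb1 lines were below vector. It fell, with a log2 fold change of -0.44 ± 0.054 (SE, adjusted p = 5.18e-07) in WT, -0.38 ± 0.054 (SE, adjusted p = 4.04e-06) in deficient and -0.23 ± 0.054 (SE, adjusted p = 0.000893) in mimetic. Snrpa, another protein of U1, fell in deficient (-0.29) and mimetic (-0.22), with -0.13 in WT, which was not called. Snrpa1, of U2, was called against vector in no line and was lower in mimetic than in WT (-0.13).

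Called in opposite directions against vector in different Zeb1 lines, with the direct comparison of those lines called too, were 5 genes, 7.58% of the 66 beside 5.69% of all genes. They were Celf2, Mbnl2 and Hnrnpa1, described above, and Sf3a3 and Snrpd2. Sf3a3, a subunit of SF3A, was at 85.5, 89.1 and 92.7 CPM in the vector libraries, 94.8, 101 and 98.6 in WT, 82.1, 80.6 and 76.9 in deficient and 86.6, 86.4 and 86.1 in mimetic. WT was above and deficient below every vector library. The log2 fold change was 0.14 ± 0.047 (SE, adjusted p = 0.0147) in WT and -0.16 ± 0.047 (SE, adjusted p = 0.00703) in deficient, and the WT call was lost without vector replicate 1 (adjusted p = 0.0786) or WT replicate 2 (adjusted p = 0.0617). Snrpd2, Sm protein D2, was at 87.0, 82.1 and 92.9 CPM in the vector libraries, 104, 99.6 and 102 in WT, 73.9, 75.1 and 73.5 in deficient and 94.8, 89.7 and 93.0 in mimetic. Again WT was above and deficient below vector, and mimetic overlapped vector. The values were 0.22 ± 0.049 (SE, adjusted p = 0.000507) in WT and -0.24 ± 0.049 (SE, adjusted p = 0.000356) in deficient, with -0.46 ± 0.049 (SE, adjusted p = 1.53e-07) between deficient and WT.

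**Figure D5:**
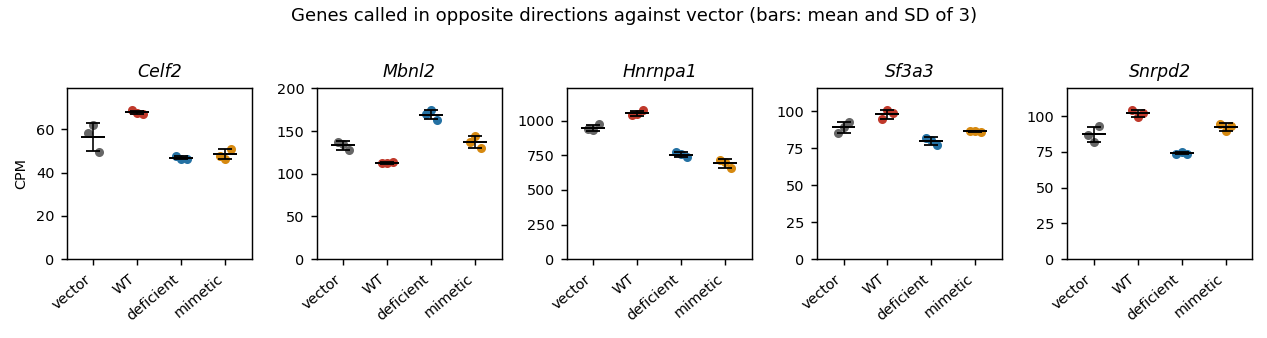
Level in CPM (vertical axes, each from 0) of the 5 genes called in opposite directions against vector; points are the 3 libraries of each line, bars the mean and SD. Mbnl2 is lowest in WT and highest in deficient, and the other 4 genes are highest in WT and lower than vector in deficient.

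Between the mutants, the share of splicing factors called was slightly below that of all genes. Mimetic against deficient gave 15 calls of 66, 22.7% beside 27.4% of all genes. Of these 11 were higher in mimetic (12.6% of all genes were higher) and 4 lower (14.9%), and with library size scaling 15 and 2. Only Esrp2 passed 1.5-fold, beside 5.93% of all genes. Higher in mimetic were Snrpb2, Snrpd1, Snrpd2, Snrpd3, Snrpe, Hnrnpc, Hnrnpd, Hnrnpl, Srsf6, Sf3b6 and Ptbp2. Lower were Esrp2, Mbnl2, Qk and Hnrnpa1. Snrpd2 led the rises with 0.32 ± 0.05 (SE, adjusted p = 5.6e-05), followed by Hnrnpd with 0.26 ± 0.079 (SE, adjusted p = 0.0195). The count fell to 8 without deficient replicate 2 and to 8 without mimetic replicate 1, and without mimetic replicate 2 it was 10, with 4 higher and 6 lower. The calls of Snrpd3, Hnrnpd, Hnrnpc, Hnrnpa1, Srsf6, Sf3b6, Ptbp2 and Qk were each lost without at least 1 library. Snrpb2 and Snrpe were not followed singly. With 1 library left out, 2 to 5 Snrp genes were called higher in mimetic.

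By these counts WT stood further from both mutants than they did from each other. The same held over all genes, of which 27.4% were called between the mutants. Deficient against WT gave 33 calls of 66, 50% beside 53.8% of all genes, with 14 higher in deficient (27.5% of all genes) and 19 lower (26.3%). With library size scaling these were 15 and 13. Past 1.5-fold were 3 genes, Esrp2, Celf3 and Mbnl2, beside 15.7% of all genes. The Celf3 call was lost with RLE size factors, DESeq2, limma-voom, the replicate block or only the 2 lines compared (adjusted p from 0.0513 to 0.0681), and without WT replicate 1 or 3 or deficient replicate 1 or 3 (adjusted p from 0.0626 to 0.227, change down to 0.62). Mimetic against WT gave 31 calls, 47.0% beside 44.9% of all genes, with 18 higher in mimetic (23.1%) and 13 lower (21.8%), or 23 and 9 with library size scaling. Past 1.5-fold were 2, Esrp2 and Hnrnpa1, beside 10.6% of all genes. Of the 11 Snrp genes 5 were lower in deficient than in WT, 45.5% beside 26.3% of all genes, and none (0) was higher, beside 27.5% of all genes: Snrpd1 (-0.24), Snrpd2 (-0.46), Snrpd3 (-0.30), Snrpe (-0.13) and Snrpg (-0.34). Among the regulators Celf1, Celf4, Esrp2, Mbnl1 and Mbnl2 were higher, and Celf2, Mbnl3 and Ptbp3 lower, than WT in deficient and in mimetic alike. Of these, Celf4 in deficient was not called with RLE size factors, DESeq2, limma-voom, the replicate block or only the 2 lines compared (adjusted p from 0.0513 to 0.0669), nor without WT replicate 1 or 3 or any 1 deficient library (adjusted p from 0.0577 to 0.217). Mbnl3 in deficient was not called with library size scaling, the 5 CPM filter, or without WT replicate 1 or 3 or deficient replicate 2 or 3 (adjusted p from 0.0587 to 0.158). Ptbp3 was not called with library size scaling (adjusted p = 0.0552 in deficient and 0.189 in mimetic), in deficient without WT replicate 2 or deficient replicate 3 (adjusted p = 0.0828 and 0.0576), and in mimetic with the 5 CPM filter or without WT replicate 1 or 2 or mimetic replicate 1 or 3 (adjusted p from 0.0525 to 0.132). These comparisons share the WT libraries, and the share of all genes called the same way in both was not counted. The list is therefore not read as a trait of the class. Of the 14 regulators 42.9% were higher and 21.4% lower than WT in each mutant. Over all genes 27.5% were higher and 26.3% lower in deficient, and 23.1% were higher and 21.8% lower in mimetic.

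Other genes of the splicing pathway were counted from 6 lists. Of 73 other spliceosome components tested, 20 rose and 22 fell in WT, 24 and 24 in deficient, and 19 and 24 in mimetic, with medians of 0.011, 0.040 and 0.053. The shares that rose, 27.4, 32.9 and 26.0%, and fell, 30.1, 32.9 and 32.9%, lie near those of all genes, 31.0, 28.4 and 28.6% and 33.6, 29.8 and 30.9%. Bud31, of the activated spliceosome, rose in all 3 lines, with 32.3 CPM (vector), 48.9 (WT), 55.9 (deficient) and 56.8 (mimetic) and log2 fold changes of 0.60, 0.79 and 0.81. Ppil1, a spliceosomal prolyl isomerase, rose by 0.56, 0.36 and 0.49. Lsm8, of the ring that binds U6 RNA, fell, with log2 fold changes of -0.28, -0.76 and -0.70, and Ddx46, the helicase that works with SF3B at the branch point, with -0.51, -0.57 and -0.52. Prpf38b fell in WT (-0.52) and mimetic (-0.10) and rose in deficient (0.12), and Cwc27 fell most in mimetic (-0.54).

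Other splicing regulators fell more often than they rose: of 43 tested, 10 rose and 18 fell in WT, 6 and 19 in deficient, and 3 and 14 in mimetic, with medians of -0.081, -0.067 and -0.056. Falls were 41.9, 44.2 and 32.6% of the list and 33.6, 29.8 and 30.9% of all genes, and rises were 23.3, 14.0 and 6.98% of the list and 31.0, 28.4 and 28.6% of all genes, so that in mimetic the share of falls was near that of all genes. Besides Rbm47, Khdrbs3, of the SAM68 family, fell from 152 ± 8.56 CPM in vector (SD, n = 3) to 102 ± 4.14 (WT), 88.1 ± 5.32 (deficient) and 87.3 ± 0.535 (mimetic). Its log2 fold changes were -0.57, -0.78 and -0.80. Taf15 fell, with log2 fold changes of -0.63, -0.49 and -0.37, and Rbm4 in WT with -0.81 and in mimetic with -0.67. Rbm20, a splicing factor of heart muscle, rose in WT by 0.96, from 0.979 to 1.91 CPM.

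SR proteins are switched by kinases. Of 9 genes for these kinases and for SR protein import, 3 rose and 4 fell in WT, 2 and 1 in deficient, and 2 and 2 in mimetic. All calls together were 77.8, 33.3 and 44.4% of the 9 genes, beside 64.6, 58.2 and 59.5% of all genes. Clk4, a nuclear kinase of SR proteins, was at 69.0, 65.0 and 63.3 CPM in the vector libraries, 35.8, 36.2 and 34.3 in WT, 46.8, 49.2 and 48.0 in deficient and 38.9, 38.9 and 39.4 in mimetic. All libraries of the Zeb1 lines were below vector, and deficient was the highest of the 3. It fell, with a log2 fold change of -0.89 ± 0.055 (SE, adjusted p = 1.57e-11) in WT, -0.45 ± 0.054 (SE, adjusted p = 4.78e-07) in deficient and -0.75 ± 0.055 (SE, adjusted p = 3.5e-10) in mimetic, and mimetic was below deficient with -0.30 ± 0.056 (SE, adjusted p = 0.000445). Srpk1, the cytoplasmic kinase, rose by 0.39, 0.27 and 0.18, and Srpk2 by 0.11, 0.24 and 0.19. Dyrk1a fell in WT (-0.36) and Clk3 in mimetic (-0.22).

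Genes of the exon junction complex and nonsense-mediated decay, which reads the marks that splicing leaves, gave 5 rises and 8 falls among 19 genes in WT, 5 and 7 in deficient, and 3 and 7 in mimetic. The falls were 42.1, 36.8 and 36.8% of the list, beside 33.6, 29.8 and 30.9% of all genes, and the rises 26.3, 26.3 and 15.8%, beside 31.0, 28.4 and 28.6%. Smg1, the kinase of the pathway, fell, with log2 fold changes of -0.60, -0.66 and -0.49, Upf3b with -0.58, -0.22 and -0.50, and Upf2 with -0.40, -0.40 and -0.31. Sap18 rose by 0.25, 0.45 and 0.57. Of 15 genes for the assembly of small nuclear ribonucleoproteins, 5 rose and 2 fell in WT, 6 and 4 in deficient, and 8 and 2 in mimetic, with medians of 0.091, 0.096 and 0.27. Rises were 33.3, 40 and 53.3% of these genes (31.0, 28.4 and 28.6% of all genes) and falls 13.3, 26.7 and 13.3% (33.6, 29.8 and 30.9%). Gemin2, a core protein of the SMN complex, was at 16.8 CPM (vector), 26.8 (WT), 24.2 (deficient) and 24.4 (mimetic), and rose by 0.68, 0.53 and 0.54. Prmt5, which methylates Sm proteins before they join the ring, rose by 0.34, 0.50 and 0.52, Strap by 0.48, 0.35 and 0.29, and Tgs1, which caps the RNA, by 0.33, 0.21 and 0.40. Gemin6 rose in WT (0.40) and mimetic (0.34), and Gemin8 fell in all 3 lines (-0.24, -0.45 and -0.33).

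Genes with exons known to switch in the epithelial-mesenchymal transition were mostly lower: of 21 tested, Mbnl1 among them, 4 rose and 13 fell in WT, 6 and 13 in deficient, and 4 and 14 in mimetic, with medians of -0.31, -0.23 and -0.23. The falls are 61.9, 61.9 and 66.7% of the list, beside 33.6, 29.8 and 30.9% of all genes, and the rises 19.0, 28.6 and 19.0%, beside 31.0, 28.4 and 28.6%. These are levels of the whole gene and say nothing of the exons. Fgfr1 was at 0.363, 0.246 and 0.264 CPM in the vector libraries, 11.8, 10.5 and 10.5 in WT, 3.26, 2.95 and 3.75 in deficient and 9.45, 9.86 and 9.92 in mimetic. It was under 0.4 CPM in every vector library and lower in deficient than in WT or mimetic, with log2 fold changes of 5.21 in WT, 3.5 in deficient and 5.05 in mimetic (adjusted p from 2.01e-15 to 2.09e-11). Golgb1 fell, with log2 fold changes of -1.06, -0.79 and -0.87, Tjp1, a tight junction scaffold, with -0.79, -0.75 and -0.70, and Fat1 with -0.65, -0.85 and -0.58.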

How the data were processed

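RNA of 4 mouse 393P lines was measured in 12 libraries, 3 per line, with QuantSeq 3' mRNA-Seq FWD, a 3' tag kit, and paired-end HiSeq sequencing (per the labels' protocols). The authors deposited raw counts per gene, with no normalization. Alignment with STAR and the build mm10 are per the submitters' processing notes. No source used here gives the versions, the counting tool, its strand setting or the annotation. The table lists 12208 genes, none with a count under 1 in any library. Counts were tested with edgeR 4.0.16 (R 4.3.3): filterByExpr left 12027 genes and removed 181, TMM scaling and a quasi-likelihood model with 1 coefficient per line were applied to all 12 libraries, and 6 pairs of lines were compared, two-sided, with Benjamini-Hochberg adjustment over all genes tested. Levels are CPM on TMM-scaled library sizes, and errors are SD, n = 3. Standard errors (SE) were computed as the absolute log2 fold change over the square root of the F statistic. Totals of 24356697 to 39029599 counts per library set the precision, and low genes such as Celf3, Celf5 and Snrpf carry wide errors.

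Gene positions are from GENCODE M21 (12195 of 12208 IDs matched) and promoter windows from RefSeq. The 66 genes, the classes and the 6 other lists were chosen with earlier results of these data known. Named genes are all tissue-regulated factors, up to 3 called genes with the largest change per other class and comparison, up to 3 per other list and comparison with vector, genes with opposite calls, and Zeb1, Cdh1 and Vim; other members are named where a count or pattern lists them, and 1 gene of the other lists is not reported here. Alternatives were RLE size factors, library size only, DESeq2 1.42.0, limma-voom (limma 3.58.1) and no filter. Others were a filter of 5 CPM or more in 3 or more libraries, models of the compared lines alone and a replicate block. Each library was also left out in turn. Counts and shares among genes of at least 50 CPM were added after the data were seen. The fit was also run on simulated counts in which few genes changed, in WT alone. Most genes were called against vector in the data, so that run does not test the scaling or the calls under such conditions. No library was treated as a copy of another, since within a line the mean chi-square per gene was 3.04 to 24.1. Pairs with vector replicate 3 or deficient replicate 3 had 14.2 to 24.1, and all other pairs at most 6.43.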

Additional observations from a re-analysis of the deposited data

Results flagged for a closer look

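For 5 genes the change against vector differed between Zeb1 lines in sign, and edgeR's quasi-likelihood test of the lines against each other was called. The comparisons share the vector libraries, and the table of all genes held 5.69% with such opposite calls.

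Celf2 rose in WT (0.26) and fell in deficient (-0.27) and mimetic (-0.22), and the direct differences were -0.53 for deficient against WT (adjusted p = 1.41e-06) and -0.48 for mimetic against WT (adjusted p = 8.2e-06). Mbnl2 fell in WT (-0.24) and rose in deficient (0.35), with a difference of 0.59 (adjusted p = 1.45e-09). Hnrnpa1 rose in WT (0.15) and fell in deficient (-0.33) and mimetic (-0.46), with differences from WT of -0.48 (adjusted p = 3.82e-09) and -0.61 (adjusted p = 2.11e-10).

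Sf3a3 had 0.14 in WT and -0.16 in deficient, with a difference of -0.29 (adjusted p = 2.51e-05). Snrpd2 had 0.22 and -0.24, with a difference of -0.46 (adjusted p = 1.53e-07). All 5 differences between deficient and WT separated every library of those lines. The WT call of Sf3a3 was lost without vector replicate 1 or WT replicate 2, and the mimetic call of Celf2 without vector replicate 2.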

How the results depend on the processing

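The counts of called splicing factors stayed within 1.5 times their value under every alternative run, except mimetic against deficient, with 15 calls, which had 8 without deficient replicate 2 and 8 without mimetic replicate 1; the cause was not tested beyond the smaller number of libraries. With 1 library left out the counts were 38 to 42 in WT, 34 to 39 in deficient and 32 to 39 in mimetic against vector, 8 to 15 in mimetic against deficient, 23 to 28 in mimetic against WT and 25 to 30 in deficient against WT. Library size scaling raised the share of rises among the calls from 41 to 53.7% in deficient and from 47.4 to 69.0% in mimetic against vector, from 73.3 to 88.2% in mimetic against deficient, from 58.1 to 71.9% in mimetic against WT and from 42.4 to 53.6% in deficient against WT. It moved the median of all genes by less than 0.1.

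Over the 162 gene and comparison results named, 41 changed their call under at least 1 alternative, in 139 of 2256 alternative values (118 calls lost, 21 gained), and no called value changed sign. The filter of at least 5 CPM left 63 of the 66 genes. With the replicate block the counts were 43, 39 and 39 against vector in WT, deficient and mimetic, 17 in mimetic against deficient, 33 in mimetic against WT and 32 in deficient against WT. No pairing of the samples by replicate number was seen, which does not exclude one. Over 18 pairs of same-numbered libraries the correlation of deviations ran from -0.0847 to 0.132, and 1 was over 0.1. Depth limits Celf3, Celf5 and Snrpf, all near or under 1 CPM.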
